A study of Salmo salar with 189 samples.

Results

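Arntl1-Ch10 and Arntl1-Ch16 are copies of the clock gene Arntl1, also called Bmal1, on chromosomes 10 and 16 of the Atlantic salmon (Salmo salar). They are an Ss4R pair, which means that they descend from 1 gene that was doubled in the whole genome duplication shared by all salmonids, and such copies are called ohnologues. The pair was chosen by name and makes up 2 of the 48 entries of the table. Transcripts were measured with a NanoString CodeSet, a set of barcoded probes that count RNA molecules without amplification, in 189 samples of 64 fish. Each of the 3 tissues gave 63 samples, namely the optic tectum (OT), a visual centre of the brain, the saccus vasculosus (SV), a sac-like organ beneath the fish hypothalamus, and the gill.

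The fish were pre-smolts of about 45 g of a commercial strain that had been raised in constant light (LL), and the labels name no genetic change and no drug. By the labels they then spent 8 weeks on a cycle of 8 h of light and 16 h of darkness at 14 °C, whereas the methods of the study give a shorter light phase, and food was withheld from 48 h before sampling. Their sex and age are not in the labels. In arm A, 3 fish were taken every 4 h under the cycle (ZT5 to ZT21, where ZT is hours since lights on) and then with the light kept on (CT1 to CT29). In arm B, 3 fish were taken every 4 h from CT1 to CT29 in constant darkness (DD). As in the methods of the study, CT1 and CT5 of arm A, which are labelled LL, were counted as the end of the diel series. This gave 21 diel samples per tissue, and 18 samples each in LL and in DD from CT9 to CT29. The methods describe a pair of tanks, and light and tank or arm cannot be told apart where arm A is compared with arm B. This holds for LL against DD, for DD against the diel series, and for CT1 and CT5 with and without light. Where LL or DD is compared with the diel series, light also cannot be told apart from later sampling and longer fasting. The CodeSet holds clock genes, and the tissue labels could therefore not be checked against markers of cell types. In whole tissues, fewer cells that express a gene and less RNA per cell cannot be told apart.

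ARNTL1 is the partner of CLOCK in the positive limb of the circadian clock. In mammals the dimer binds E-box elements and activates the period (per) and cryptochrome (cry) genes, whose products in turn repress it. Transcription of Arntl1 itself is repressed by the nuclear receptors REV-ERB (Nr1d1 and Nr1d2) and activated by ROR in other vertebrates, which makes Arntl1 RNA one of the rhythmic transcripts of the clock.

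The stretch of RNA that each probe recognises is shown because the values of close duplicates are separate only if their probes are. Both targets are 100 bases long and are given 5′ to 3′, with capitals for the bases that are identical in the best ungapped local alignment of the targets.
Arntl1-Ch10: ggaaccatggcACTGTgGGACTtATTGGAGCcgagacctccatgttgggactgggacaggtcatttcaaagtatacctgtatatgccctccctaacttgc
Arntl1-Ch16: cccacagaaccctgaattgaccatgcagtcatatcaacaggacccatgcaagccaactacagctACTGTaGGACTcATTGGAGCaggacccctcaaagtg
The Arntl1-Ch10 target covers bases 2172 to 2271 of its transcript and the Arntl1-Ch16 target bases 1957 to 2056 of its own. The shared stretch holds 20 aligned bases, of which 18 are identical, at bases 12 to 31 of the first target and 65 to 84 of the second. The longest run of identical bases is 8. Only the targets were aligned, and whether a probe could bind the transcript of the other member was not examined. Targets of other pairings of the 4 Arntl1 entries align over 6 to 9 bases. Both gene identifiers (106561455 and 106573213) are in the RefSeq annotation of the Ssal_v3.1 assembly, where the first carries the symbol arntl1a and the second has only a locus name.

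Values are given as signal, the barcode counts that the authors normalised to spiked-in control RNAs. This step does not remove differences in the amount of RNA that entered the assay. Summed over all entries, the lowest, median and highest signal of a sample were 24491, 34786 and 47547 for the OT, 8671, 12348 and 19939 for the SV, and 3850, 8635 and 11767 for the gill. Rhythms, peak times, each member's amplitude and level differences between groups, and correlations between fish were therefore also computed on scaled values. For these a sample's signal is divided by the geometric mean over the expressed transcripts. These are clock genes, the members among them, so scaling may also remove changes over the day or with light that they share. The F tests of curves, correlations of time point means and role lists below were not recomputed on scaled values. A factor shared by all transcripts of a sample, such as RNA input, cancels in the ratio of the members within it. Whether a background that adds to both signals enters the ratio was not examined. Because each probe has its own capture efficiency, changes of the ratio were compared, not its absolute value. Levels were not compared across tissues. Log2 values are of signal plus 1, and errors of means are SD over samples. The SD of a whole series or tissue also holds the change between time points. Permutations of time points or group labels refer to the spread between samples. Where the members were swapped within samples, the p-value refers to the spread of the difference between them over samples. No p-value covers the spread between tanks.

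In the OT the mean signal of Arntl1-Ch10 in the diel series was highest at ZT5 and ZT9, the latter after lights off, and lowest at ZT21, late in the night. It was 465, 511 and 567 at ZT5, 418, 497 and 623 at ZT9, and 394, 409 and 438 at ZT13. At ZT17 it was 266, 344 and 395, at ZT21 it was 275, 291 and 306, at CT1 it was 292, 325 and 348, and at CT5 it was 402, 448 and 482. All 3 fish at ZT5 and all 3 at ZT9 lay above all 6 fish of ZT21 and CT1. These are the time points with the highest and lowest means, and such a choice favours separation. Whether other transcripts separate in the same way was not counted. Arntl1-Ch16 took a different course. Its signal was 387, 396 and 509 at ZT5, 428, 510.2 and 555 at ZT9, and 457, 481 and 494 at ZT13. It was 342, 464 and 579.6 at ZT17, 327, 338 and 341 at ZT21, 330.3, 333 and 383 at CT1, and 278, 323 and 344 at CT5. At CT5, when Arntl1-Ch10 had risen in all 3 fish above all fish of ZT21 and CT1, Arntl1-Ch16 was still within or below the range of those time points.

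Rhythmicity was tested with JTK_CYCLE, which ranks the values of a gene against cosine curves of 20 and 24 h and adjusts the exact p of the rank statistic over 11 curves. A transcript was called rhythmic at an adjusted p under 0.05, and the amplitude (mean level to peak) and the peak time are those of a 24 h cosine fitted to log2 signal. In the diel series of the OT, 48.8% of the 41 expressed transcripts were called. Arntl1-Ch10 was among them (amplitude 0.43, SE 0.058, adjusted exact p = 0.000145, and 0.000659 after Benjamini-Hochberg adjustment over the transcripts). Arntl1-Ch16 had an amplitude of 0.31 (SE 0.075) and missed the threshold (adjusted exact p = 0.0809). It passed with scaled values (amplitude 0.27, adjusted exact p = 9.91e-05) and by a permutation test of the cosine amplitude (p = 0.00195), so its call rests on the test and the scale. The p-values of this permutation test are not adjusted over transcripts, and the share of transcripts that passed it was not counted. With scaled values 29 of the 41 transcripts were called.

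**Figure D1:**
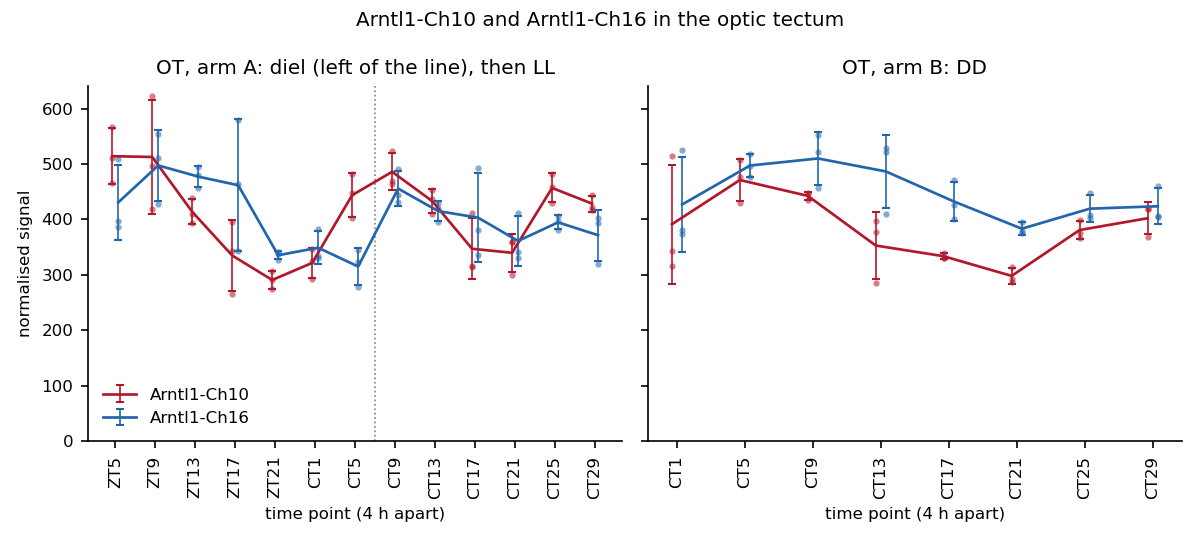
Normalised signal of Arntl1-Ch10 (red) and Arntl1-Ch16 (blue) in the OT by time point, with arm A on the left (diel series, then LL after the dotted line) and arm B in DD on the right. Points are single fish and lines and bars are the mean ± SD of 3 fish. At CT5 in arm A Arntl1-Ch10 has risen to 402, 448 and 482 while Arntl1-Ch16 lies at 278, 323 and 344.

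In constant conditions Arntl1-Ch10 was called in the OT in both light conditions. Over CT9 to CT29 its signal in LL ranged from 300.2 to 525 (median 427), and its amplitude was 0.24 (SE 0.052, adjusted exact p = 0.00371, Benjamini-Hochberg 0.0138). In DD it ranged from 285 to 448 (median 372), with an amplitude of 0.24 (SE 0.044, adjusted exact p = 0.000115, Benjamini-Hochberg 0.00236). The share of transcripts called was 31.7% in LL and 39% in DD. The signals of LL and DD overlapped. Arntl1-Ch16 ranged from 319 to 492 in LL (median 400.3), where it was not called (amplitude 0.12, SE 0.055, adjusted exact p = 0.211). In DD, where it ranged from 375 to 552 (median 419), it was called (amplitude 0.18, SE 0.042, adjusted exact p = 0.00255, Benjamini-Hochberg 0.0131). These LL and DD calls of Arntl1-Ch16 changed places with scaled values (LL amplitude 0.18, adjusted exact p = 0.00115, and DD amplitude 0.08, adjusted p = 0.168), and the DD call was lost when fish 2 of all time points was left out (adjusted exact p = 0.134). Of the 41 transcripts, 20 were called in LL and 15 in DD with scaled values.

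In every series of the OT the peak of Arntl1-Ch16 came later than that of Arntl1-Ch10. In the diel series Arntl1-Ch10 peaked 8.46 h after lights on (SE 0.50) and Arntl1-Ch16 at 12.2 h (SE 0.84). The difference, fitted jointly because the members share their fish, was 3.78 h (SE 0.82, 95% interval 2.16 to 5.40 h). In LL the peaks were at 7.13 h and 10.7 h, which differed by 3.58 h (SE 1.58, interval 0.49 to 6.67 h). In DD they were at 7.15 h and 10.5 h, which differed by 3.33 h (SE 0.86, interval 1.64 to 5.03 h). With scaled values these delays were 2.84, 1.94 and 2.93 h, and their intervals also lay above 0. Among pairs with both members called in the diel series of the OT, the size of the peak difference was 0.34 h for Tef-Ch3/6, 0.65 h for Per1-Ch4/11, 2.42 h for Nr1d2-Ch14/27, 2.60 h for Arntl1-Ch11/26 and 3.39 h for Per2-Ch14/3. Arntl1-Ch10/16 is not such a pair, because Arntl1-Ch16 was not called there or in LL, so its peak times in these series come from uncalled rhythms. Other pairs without both members called differed by 0.03 h (Clock-Ch10/23, SE 1.33) to 10.4 h (Cry1-Ch10/16, SE 3.07) in the diel series. In LL only Per1-Ch4/11 had both members called, with peaks 1.11 h apart. In DD the pairs with both members called were Arntl1-Ch10/16 and Per1-Ch4/11, whose members peaked 0.49 h apart. The difference in amplitude between Arntl1-Ch10 and Arntl1-Ch16, tested by swapping the members within samples, passed the threshold in none of the 9 combinations of tissue and series after adjustment. The largest in the OT was 0.12 in LL (permutation p = 0.0226, Benjamini-Hochberg 0.167), and 3.17% of such tests over all pairs passed. Swapping takes the members to share 1 curve, so a difference in peak time also widens the spread of the swapped values. Equal amplitudes therefore cannot be read from a test that did not pass.

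**Figure D2:**
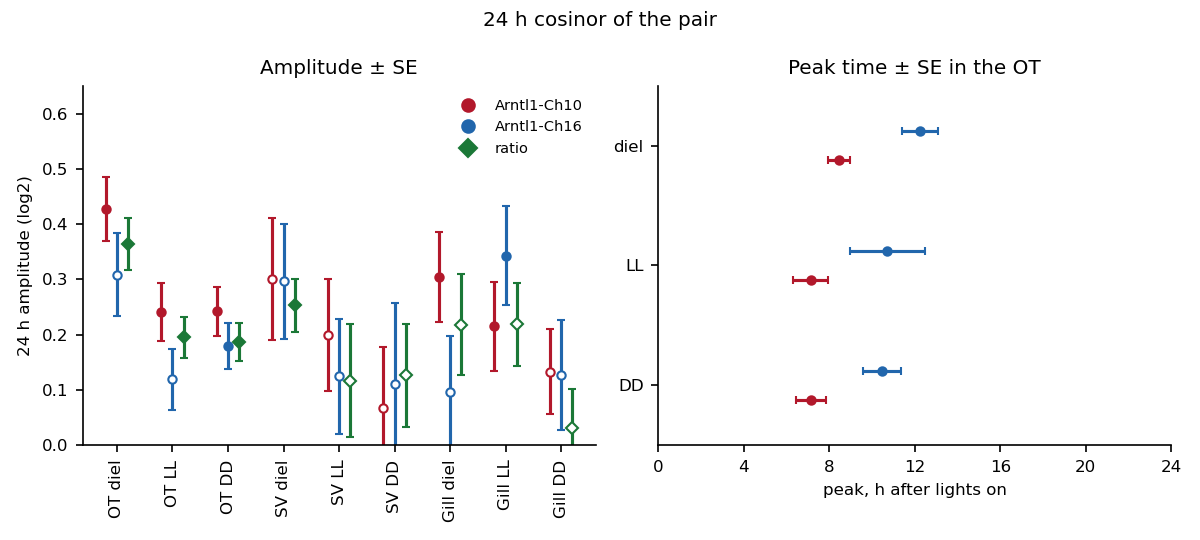
Left, amplitude ± SE (log2) of the 24 h cosine for Arntl1-Ch10, Arntl1-Ch16 and their ratio in each tissue and series, with filled symbols where the rhythm was called, and bars cut at 0. Right, peak times ± SE of both members in the OT, in hours after lights on, where Arntl1-Ch16 (blue) lies 3.78, 3.58 and 3.33 h after Arntl1-Ch10 (red).

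The log2 ratio of Arntl1-Ch10 to Arntl1-Ch16 within a sample changed over the day in the OT. At ZT5 it was 0.15, 0.23 and 0.40. By ZT17 it had fallen to -0.55, -0.43 and -0.36, and at CT5 it stood at 0.38, 0.53 and 0.57. The ratio of all fish at ZT5 and CT5 was thus above that of all fish at ZT17, with no overlap. These time points hold the highest and lowest mean ratios of the series, and such a choice favours separation. The share of other pairs that separate between their own extremes was not counted. The 24 h amplitude of the ratio was 0.36 (SE 0.047, peak at 5.46 h), and a permutation test of it (time points permuted over samples, Benjamini-Hochberg adjustment over 126 tests of pairs, tissues and series) gave p = 0.00588. In LL the ratio had an amplitude of 0.20 (SE 0.037, adjusted permutation p = 0.00832) and in DD of 0.19 (SE 0.035, adjusted permutation p = 0.0107), with peaks at 5.17 and 4.00 h. Of all 126 tests 15.9% passed, and all 3 series of the OT did for this pair. When 1 fish per time point was left out the amplitudes moved little (0.34 to 0.38 in the diel series, 0.15 to 0.22 in LL and 0.18 to 0.19 in DD), but the adjusted permutation p then lay between 0.0416 and 0.209 and passed in 1 of 3 such fits of the diel series, in 1 of LL and in none of DD.

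The ratio also differed between LL and DD in the OT. At CT9 it was 0.08, 0.09 and 0.11 in LL against -0.34, -0.22 and -0.04 in DD, and at CT13 it was 0.02, 0.05 and 0.11 against -0.53, -0.47 and -0.41. At CT17 it was -0.27, -0.26 and -0.10 in LL against -0.51, -0.32 and -0.28 in DD, and at CT21 it was -0.20, -0.14 and 0.08 against -0.44, -0.40 and -0.25. At CT25 it was 0.18, 0.20 and 0.25 against -0.16, -0.14 and -0.12, and at CT29 it was 0.11, 0.14 and 0.39 against -0.14, -0.14 and 0.05. The LL fish lay above the DD fish without overlap at 6 of 6 time points, most narrowly at CT17. Over all 15 pairs of the OT, 36.7% of the 90 combinations of pair and time point showed no overlap in either direction. The mean ratio was 0.05 ± 0.18 in LL and -0.27 ± 0.17 in DD (n = 18 each). The difference of 0.32 had an adjusted p of 0.00015 in a permutation test within time points, and its unadjusted p of 1e-05 is the smallest that the resamples can give. Of the 15 pairs, 33.3% passed this test. Leaving out CT9 and CT13, an alternative chosen after seeing the data, gave 0.27 (adjusted permutation p = 0.0003).

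Set against the diel series at the same clock times (mean -0.08 ± 0.31), the OT ratio was lower in DD by 0.19 on the log2 scale (difference -0.19, adjusted permutation p = 0.00337, with 26.7% of pairs past the threshold). In LL it was higher by 0.12 (adjusted permutation p = 0.0571, 26.7% of pairs). The DD difference did not pass when fish 3 of all time points was left out (-0.15, adjusted permutation p = 0.12). In the SV the LL and DD means of the ratio were 0.22 ± 0.30 and 0.20 ± 0.28 (difference 0.03, adjusted permutation p = 0.927), and in the gill they were 0.40 ± 0.26 and 0.47 ± 0.20 (difference -0.07, adjusted permutation p = 0.58). The groups overlapped at every time point in both tissues. Whether the difference between LL and DD itself differed between tissues was not tested.

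**Figure D3:**
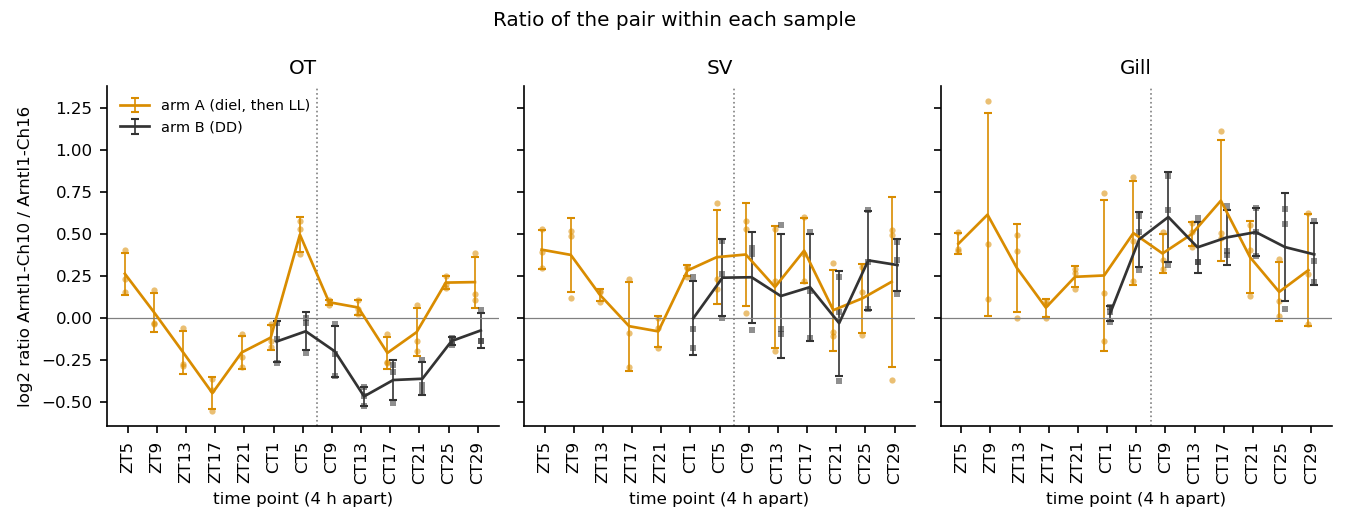
Log2 ratio of Arntl1-Ch10 to Arntl1-Ch16 in each sample of the OT, SV and gill by time point, for arm A (diel series, then LL after the dotted line) and arm B (DD). Points are single fish and lines and bars are the mean ± SD of 3 fish. In the OT the LL fish lie above the DD fish at 6 of 6 time points from CT9 to CT29, and at 0 of 6 in the SV and gill.

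The members contributed to the OT difference in opposite directions on the deposited scale. Mean log2 signal of Arntl1-Ch10 was 8.69 ± 0.23 in LL and 8.51 ± 0.22 in DD, a difference of 0.17 (adjusted permutation p = 0.000703). That of Arntl1-Ch16 was 8.64 ± 0.18 in LL and 8.78 ± 0.17 in DD, a difference of -0.14 (adjusted permutation p = 0.0084). The LL and DD signals of each member overlapped, and 48.8% of OT transcripts passed this test, with a median difference of 0.06 over all 41. With scaled values the difference was 0.03 for Arntl1-Ch10 (adjusted permutation p = 0.542) and -0.29 for Arntl1-Ch16 (adjusted permutation p = 4.56e-05). The rise of Arntl1-Ch10 in LL thus depended on the scale. Arntl1-Ch16 was lower in LL on both scales, but the size of its difference depended on the scale too. The share of transcripts that passed with scaled values was not counted. The Arntl1-Ch16 difference on the deposited scale did not pass when fish 1 (-0.16, adjusted permutation p = 0.0545) or fish 3 (-0.09, adjusted permutation p = 0.174) of all time points was left out.

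In the SV Arntl1-Ch10 was higher in LL than in DD by 0.31 (adjusted permutation p = 0.0243), and the difference of 0.29 for Arntl1-Ch16 did not pass (adjusted permutation p = 0.0657). There the median of all 38 transcripts was itself higher by 0.25, 34.2% passed the test, and with scaled values the differences were 0.02 for Arntl1-Ch10 and -0.0057 for Arntl1-Ch16. On the deposited scale that of Arntl1-Ch10 also did not pass when fish 2 (0.17) or fish 3 (0.29) of all time points was left out. In the gill the differences were -0.09 and -0.02 and did not pass (20% of transcripts did). Against the diel series the gill signal of Arntl1-Ch10 was higher in DD by 0.20 (adjusted permutation p = 0.0456), which was not called with scaled values (0.14) or when any 1 of fish 1, 2 and 3 was left out (0.12 to 0.26).

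The first morning after the last dark phase compares fish that saw light at CT1 and CT5 (arm A) with fish that did not (arm B). In the OT the signal of Arntl1-Ch16 at CT5 was 278, 323 and 344 with light and 476, 497 and 519 without it. At CT1 it was 330.3, 333 and 383 with light against 374, 381 and 526 without, with overlap. Over both time points Arntl1-Ch16 was lower with light by 0.47 on the log2 scale (8.37 ± 0.15 against 8.84 ± 0.22, 6 fish each). The exact permutation test, whose smallest possible p is 0.005, gave p = 0.015 and 0.0512 after adjustment over transcripts, of which 14.6% passed. With scaled values the difference of -0.29 passed (adjusted exact permutation p = 0.0342). The median of all OT transcripts was lower by 0.25. Arntl1-Ch10 differed by -0.17 (exact permutation p = 0.18), with 402, 448 and 482 in light and 430.2, 476 and 507 in darkness at CT5. The ratio differed by 0.30 (exact permutation p = 0.05, adjusted 0.206). At CT5 alone it was 0.38, 0.53 and 0.57 with light against -0.21, -0.03 and 0.00 without, and at CT1 the groups overlapped. How many other transcripts or pairs separated the groups at CT5 was not counted. In the gill Arntl1-Ch16 was lower with light by 0.37 on the log2 scale (6.35 ± 0.30 against 6.72 ± 0.14), which did not pass after adjustment (exact permutation p = 0.015, adjusted 0.12), and Arntl1-Ch10 differed by -0.24 (exact permutation p = 0.075). On the deposited scale the differences in the SV had the other sign and did not pass. They were 0.11 for Arntl1-Ch16 (exact permutation p = 0.435) and 0.32 for Arntl1-Ch10 (exact permutation p = 0.07). There the median of all transcripts was itself higher by 0.13. With scaled values the SV differences were -0.065 for Arntl1-Ch16 and 0.14 for Arntl1-Ch10, so the sign of Arntl1-Ch16 depended on the scale. Those of the gill were -0.31 and -0.18, and none of these passed.

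The daily change of Arntl1-Ch16 in the OT was smaller in constant conditions. Over the 6 clock times that the series share, its amplitude fell from 0.33 in the diel series to 0.12 in LL (difference -0.21, adjusted permutation p = 0.00513) and to 0.18 in DD (difference -0.15, adjusted permutation p = 0.0372). Of the OT transcripts 17.1% passed for LL and 29.3% for DD. The amplitude of Arntl1-Ch10 was 0.40, 0.24 and 0.24, and its differences of -0.16 did not pass (adjusted permutation p = 0.147 and 0.0634). With scaled values both differences of Arntl1-Ch10 passed (-0.18 and -0.27, adjusted permutation p = 0.00697 and 0.00133), while that of Arntl1-Ch16 in LL did not (-0.09, adjusted permutation p = 0.106). When fish 1 of all time points was left out neither difference of Arntl1-Ch16 passed (-0.18 in LL and -0.06 in DD), and without fish 3 that in LL did not (-0.20).

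In the SV the signal of Arntl1-Ch10 ranged from 62.3 to 171 in the diel series (median 122), from 80.7 to 178 in LL (median 140.3) and from 76.7 to 175 in DD (median 111). That of Arntl1-Ch16 ranged from 61.1 to 157 (median 104), from 79.7 to 185 (median 111) and from 58.7 to 184 (median 91.1). The series overlapped widely for both members. In the diel series neither member was called (amplitude 0.30 for both, SE 0.11 and 0.10, adjusted exact p = 0.119 for both, against 23.7% of 38 transcripts called). Both passed with scaled values (0.31, adjusted exact p = 0.000209, and 0.19, adjusted p = 0.0107). They also passed by the permutation test of the amplitude (p = 0.0277 and 0.0369, not adjusted over transcripts). Of the 38 transcripts, 19 were called with scaled values. The peaks lay at 10.7 h for Arntl1-Ch10 and 14.0 h for Arntl1-Ch16, and the delay of 3.35 h (SE 1.28, interval 0.84 to 5.85 h) had the direction seen in the OT. The ratio was rhythmic in the diel series of the SV (amplitude 0.25, SE 0.048, peak at 6.38 h, adjusted permutation p = 0.0133), although each alternative that left out 1 fish per time point missed the threshold (adjusted permutation p from 0.0602 to 0.181). In LL, where 0% of SV transcripts were called, the adjusted exact p was 0.586 for Arntl1-Ch10 and 1 for Arntl1-Ch16. In DD it was 1 for both, with 7.89% called.

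In the gill the signal of Arntl1-Ch10 ranged from 61.5 to 194 in the diel series (median 109), from 64.4 to 142 in LL (median 121) and from 83.7 to 156 in DD (median 125). That of Arntl1-Ch16 ranged from 57.4 to 128 (median 89.9), from 46.0 to 137 (median 91.1) and from 52.4 to 125 (median 88.6). The series overlapped for both members here too. In the diel series, where 15% of 40 transcripts were called, Arntl1-Ch10 was called (amplitude 0.30, SE 0.081, peak at 7.84 h, adjusted exact p = 0.0174) and Arntl1-Ch16 was not (0.10, SE 0.10, adjusted p = 1). In LL, where 15% were called again, both were (Arntl1-Ch10 0.21, SE 0.080, adjusted exact p = 0.0359, and Arntl1-Ch16 0.34, SE 0.090, adjusted p = 0.0269). None of these gill calls held after Benjamini-Hochberg adjustment (0.174, 0.24 and 0.24). Both LL calls were lost with equal ranks for equal points of the curves (0.133 and 0.0623), and each gill call was lost in 2 or 3 of the 3 fits that left out 1 fish per time point. In LL the order of the peaks was the reverse of that in the OT, with Arntl1-Ch16 at 5.57 h and Arntl1-Ch10 at 8.11 h (difference -2.55 h, SE 1.28, interval -5.06 to -0.03 h). In DD, where 10% were called, the adjusted exact p was 0.586 and 1. The study names Arntl1-Ch10 as the gill transcript that stayed rhythmic in DD, which was not found here. Why the results differ was not examined. The ratio was not called in any gill series (adjusted permutation p = 0.264, 0.112 and 0.955).

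**Figure D4:**
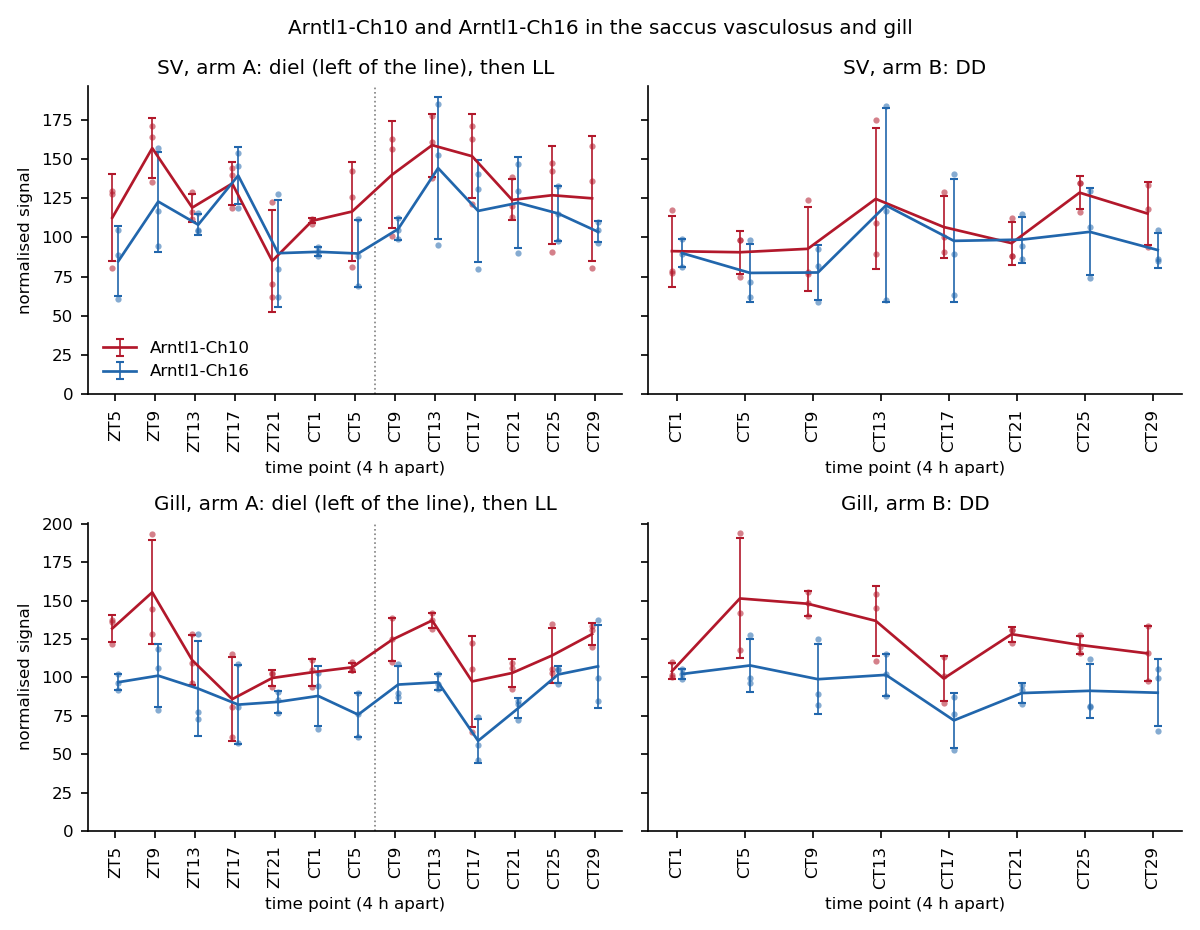
Normalised signal of Arntl1-Ch10 (red) and Arntl1-Ch16 (blue) in the SV (top) and gill (bottom) by time point, with arm A on the left (diel series, then LL after the dotted line) and arm B in DD on the right. Points are single fish and lines and bars are the mean ± SD of 3 fish. For each member the values of the diel series, LL and DD overlap in both tissues.

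The balance of the pair differed between tissues. The mean log2 ratio of Arntl1-Ch10 to Arntl1-Ch16 was lowest in the OT (-0.08 ± 0.26), followed by the SV (0.20 ± 0.27) and the gill (0.39 ± 0.27, n = 63 each). The ranges overlapped (-0.55 to 0.57, -0.37 to 0.68 and -0.14 to 1.29). Permuting tissue labels within time points gave differences of -0.28 between OT and SV (adjusted permutation p = 1.38e-05), -0.47 between OT and gill (adjusted permutation p = 1.38e-05) and -0.19 between SV and gill (adjusted permutation p = 9.33e-05). Over all pairs 90% of 40 such comparisons passed, so a ratio that differs between tissues is usual in this CodeSet. The diel amplitude of either member did not differ between tissues beyond the spread (10.7% of 112 comparisons passed). For Arntl1-Ch10 the difference was 0.13 between OT and SV (adjusted permutation p = 0.594) and 0.12 between OT and gill (0.353), both of which passed with scaled values (0.20 and 0.24, adjusted permutation p = 0.0127 and 0.0393). For Arntl1-Ch16 the largest difference was 0.21 between OT and gill (permutation p = 0.0505, adjusted 0.152).

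The curves of the members over both days were also compared as in the methods of the study, by an F test of whether each member needs its own sixth-order polynomial or 1 polynomial serves both, after division by the mean of each gene. Its threshold is a p under 0.01, and it takes the members as independent although they share fish. A permutation that swapped the members within samples, which keeps that pairing as a block, was therefore run beside it. In the OT the curves of Arntl1-Ch10 and Arntl1-Ch16 differed over the diel and LL series (F = 3.53, p = 0.00289, permutation p = 1e-05) and over the diel and DD series (F = 3.82, p = 0.0016, permutation p = 2e-05), with 39 samples in each. Of 84 such F tests over all pairs, 4.76% passed. That share does not apply to the permutation, whose p-values are not adjusted over pairs. How many other pairs passed the permutation was not counted, and 1e-05 is the smallest p that its resamples can give. With Benjamini-Hochberg adjustment both F tests of this pair missed 0.05 (0.0808 and 0.0671), and they also did not pass with fourth-order polynomials (F = 2.21 and 2.22) or when any 1 of fish 1, 2 and 3 was left out (F from 1.94 to 2.89 and from 2.29 to 2.88). In the SV and gill the smallest p of the F test was 0.503. The study itself reports differing curves for this pair by this test, from the same data. It describes the OT rhythm of Arntl1-Ch10 as the more robust and the larger in amplitude. The amplitude difference of the members in the OT did not pass after adjustment here, by a test from which equal amplitudes cannot be read.

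Other parts of the loop were read beside the pair as lists chosen by role. Of its partners Clock-Ch10 and Clock-Ch23, 0 of 2 were called in the diel series and LL of the OT, and Clock-Ch23 was called in DD with a peak at 13.1 h (amplitude 0.25), after both members. Of the other Arntl1 pair, Arntl1-Ch26 (0.34, peak at 7.89 h) and Arntl1-Ch11 (0.26, peak at 10.5 h) were called in the OT diel series, 0 of 2 in LL, and Arntl1-Ch11 in DD (0.28, peak at 10.1 h). Among 11 expressed nuclear receptors that act on Arntl1 in other vertebrates, 3 were called in the OT diel series (48.8% of all transcripts were), which are Nr1d1-Ch6 (0.58, peak at 15.6 h), Nr1d2-Ch14 (0.29, 17.7 h) and Nr1d2-Ch27 (0.43, 20.1 h). Each of these REV-ERB transcripts peaked later than Arntl1-Ch10 and Arntl1-Ch16. In LL 3 of 11 were called (Nr1d1-Ch6, Nr1d2-Ch27 and Rora-Ch16) and in DD 4 of 11, among them Nr1d1-Ch6 and Nr1d2-Ch27, which is near the 31.7% and 39% of all transcripts. Among 14 expressed E-box targets of the loop, 11 were called in the OT diel series, 8 in LL and 6 in DD, where the shares over all transcripts were 48.8%, 31.7% and 39%, so that the DD count is near the background. Per1-Ch4 (0.81, peak at 16.8 h) and Ciart-Ch14 (0.70, 16.9 h), a repressor of the CLOCK and ARNTL1 dimer, peaked after both members, and Cry1-Ch16 (0.24, 5.58 h) before. Peaks of the other called E-box targets are not reported here, so these examples do not stand for the list. The median amplitude was 0.15 for the nuclear receptors and 0.38 for the E-box targets, against 0.24 for all OT transcripts in the diel series. In the gill diel series 1 of 2 partners, 3 of 9 nuclear receptors and 1 of 15 E-box targets were called, beside 15% of all transcripts. In the SV diel series the counts were 0 of 2, 1 of 9 and 5 of 14, beside 23.7%.

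By the correlation of 21 time point means of log2 signal, which share their samples and RNA input across transcripts, Arntl1-Ch11 was among the 3 transcripts most like each member in the OT. The correlations are a description, and differences between them were not tested. Most like Arntl1-Ch10 were Arntl1-Ch11 (r = 0.77), Arntl1-Ch26 (0.68) and Arntl1-Ch16 (0.41), and least like it were Tef-Ch6 (-0.69), Tef-Ch3 (-0.67) and Per1-Ch11 (-0.64). Most like Arntl1-Ch16 were Clock-Ch10 (0.77), Arntl1-Ch11 (0.72) and Dbp-Ch5-1 (0.69), and least like it were Nr1d2-Ch27 (-0.39), Cry2-Ch10 (-0.32) and Per2-Ch14 (-0.18). Arntl1-Ch10 ranked 11th among the transcripts like Arntl1-Ch16. The median r over all other transcripts was 0.11 and 0.17. In the SV the members correlated at 0.82, which made Arntl1-Ch16 the transcript most like Arntl1-Ch10, followed by Tef-Ch28 (0.80) and CKIe-Ch1 (0.75). Most like Arntl1-Ch16 there was Clock-Ch10 (0.87), as in the OT. In the gill they correlated at 0.71, and Arntl1-Ch16 was again the transcript most like Arntl1-Ch10, while CKIe-Ch3 (0.73) was most like Arntl1-Ch16. The medians over all others were 0.54 and 0.58 in the SV and 0.37 and 0.40 in the gill. Tef and Dbp encode PAR bZIP transcription factors, an output of the clock in mammals, and CKIe encodes casein kinase 1 epsilon, which phosphorylates PER proteins.

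The log2 ratio of the other Arntl1 pair, Arntl1-Ch11 to Arntl1-Ch26, was rhythmic in the diel series of the OT (amplitude 0.21, SE 0.046, adjusted permutation p = 0.0272) with a peak at 16.6 h, against 5.46 h for Arntl1-Ch10/16. It was not called in LL (adjusted permutation p = 0.537) or DD (0.0726). Its LL and DD means in the OT were 2.50 ± 0.17 and 2.43 ± 0.18 (difference 0.07, adjusted permutation p = 0.221), where that of Arntl1-Ch10/16 differed by 0.32. The groups did not overlap at 1 of 6 time points, against 6 of 6. The difference between the pairs was not itself tested.

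Fish that were above the mean of their time point for Arntl1-Ch10 tended to be so for Arntl1-Ch16. The correlation of these deviations was r = 0.81 in the OT (Spearman rho 0.72, adjusted permutation p = 1.5e-05 for both), 0.71 in the SV (rho 0.69, adjusted permutation p = 1.5e-05 for both) and 0.47 in the gill (rho 0.41, adjusted permutation p = 0.00867 and 0.0104), over 63 samples each. RNA input is shared by all transcripts of a sample, and the median r over all pairs of transcripts was 0.54, 0.53 and 0.29. Without the 2 fish farthest from the median r was 0.76, 0.72 and 0.39. Within arm A it was 0.83, 0.69 and 0.37 (permutation p = 0.152 in the gill), and within arm B 0.80, 0.75 and 0.67. With scaled values it was 0.41 in the OT (adjusted permutation p = 0.00837), 0.30 in the SV (0.125) and 0.38 in the gill (0.018).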

How the data were processed

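For each sample the authors deposited a signal, the barcode counts after normalisation to spiked-in positive controls with the nSolver software. Raw counts were not used here. All columns were matched to samples by their labels, 0 columns were left unused, and 0 pairs of samples held identical values. Expressed transcripts, as the supplement of the study lists them, numbered 41 for the OT, 38 for the SV and 40 for the gill, with 15, 13 and 14 pairs. The depth of a sample is given as its summed signal, and no counting intervals were derived.

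JTK_CYCLE was written in Python 3.11.15 (numpy 2.4.6, pandas 2.3.3, scipy 1.17.1, matplotlib 3.10.9) after the R package that the methods name. Differences were tested by permutation within time points (100000 resamples, two-sided, threshold 0.05, Benjamini-Hochberg adjustment over all transcripts or pairs), and at CT1 and CT5 exactly over 400 ways. Targets were aligned with Biopython 1.88. The tests were checked on simulated data. Alternatives were a pseudocount of 10, scaled values, no filter on expression, other forms of the tests, and leaving out 1 fish of each time point.

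The tissues of 1 fish carry its number in the labels, which pairs them, except for some fish at CT17 in DD. As a check of this pairing, residuals after removing time point means were correlated between tissues, with a median over transcripts of 0.107 for OT and SV, 0.122 for OT and gill and 0.0866 for SV and gill. The members, the lists, the form of the JTK_CYCLE curves and the tests were chosen with earlier results of these data known. Named besides the pair are the 3 transcripts most and least like each member, those of the role lists that were called (not all are reported here), and pairs with both members called. Of the other pairs, those with the smallest and the largest peak difference in the diel series of the OT are also named.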

Additional observations from a re-analysis of the deposited data

Results flagged for a closer look

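The daily change of Arntl1-Ch16 in the OT differed between series by a test of the difference itself, in which series labels were permuted within clock times. Its 24 h amplitude was smaller in LL than in the diel series (difference -0.21, adjusted permutation p = 0.00513) and smaller in DD than in the diel series (difference -0.15, adjusted permutation p = 0.0372). With scaled values the LL difference was -0.09, and with fish 1 of all time points left out the DD difference was -0.06, and neither passed. The part of RNA input in these differences was not tested further. The amplitude of Arntl1-Ch10 in the OT also differed from the diel series by -0.16 in LL and by -0.16 in DD. Neither passed on the deposited scale, and both passed with scaled values. Whether the change differed between the members was not tested.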

How the results depend on the processing

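Of 642 values recomputed under other settings for 108 results, 572 kept their side of the threshold, among them all with a pseudocount of 10 and all on LD-labelled samples alone. A change of sign was counted as a change only where the main or the recomputed value passed. The 572 therefore also hold values that changed sign without passing. A result that was not called and stayed so counts among the 572, so this number does not measure how stable the called results are. The planned count models were not run. In the changes that follow the cause was not tested.

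With scaled values rhythms were gained by Arntl1-Ch16 in the OT in the diel series (0.27) and LL (0.18) and by both members in the SV diel series (0.31 and 0.19), and lost by Arntl1-Ch16 in the OT in DD (0.079) and Arntl1-Ch10 in the gill in LL (0.22). Amplitude differences were gained by Arntl1-Ch10 between OT and SV (0.20), OT and gill (0.24), and in the OT between LL or DD and the diel series (-0.18 and -0.27), and lost by Arntl1-Ch16 for LL (-0.085). The level of Arntl1-Ch16 in the OT against the diel series turned from 0.00 to -0.12 in LL and was gained in DD (0.17), and that at CT1 and CT5 was gained (-0.29). The level of Arntl1-Ch10 lost its call for LL against DD in the OT (0.029) and SV (0.020) and for DD against the diel series in the gill (0.14, and 0.20 with all entries). The correlation in the SV fell to 0.30.

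Equal ranks in JTK_CYCLE and Benjamini-Hochberg adjustment each ended the gill LL calls (0.21 and 0.34), and the latter the gill diel call (0.30). The permutation test of the amplitude, without adjustment over transcripts, added Arntl1-Ch16 in the OT diel series (0.31) and both members in the SV diel series (0.30 and 0.30). Fourth-order polynomials gave F = 2.21 and 2.22. Without the 2 lowest totals, chosen after seeing the data, Arntl1-Ch10 in the SV differed between LL and DD by 0.26 (not called).

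Leaving out 1 fish per time point leaves 2, and at least 1 such fit changed the call of each result here. Rhythm amplitudes lay between 0.16 and 0.22 for Arntl1-Ch16 in the OT in DD, 0.19 and 0.40 for Arntl1-Ch10 in the gill diel series, and, in the gill in LL, 0.19 and 0.28 for Arntl1-Ch10 and 0.24 and 0.44 for Arntl1-Ch16. Those of the ratio lay between 0.34 and 0.38 (OT diel), 0.15 and 0.22 (OT LL), 0.18 and 0.19 (OT DD) and 0.23 and 0.28 (SV diel). The amplitude difference of the members in the gill diel series lay between -0.0044 and 0.31. In the OT the amplitude of Arntl1-Ch16 differed from the diel series by -0.26 to -0.18 in LL and -0.21 to -0.055 in DD (-0.055 without fish 1), and that of Arntl1-Ch10 by -0.25 to -0.11 in DD. Levels differed by 0.044 to 0.22 (Arntl1-Ch10, OT, LL against diel), 0.064 to 0.24 (Arntl1-Ch16, OT, DD against diel), -0.19 to -0.091 (Arntl1-Ch16, OT, LL against DD), 0.088 to 0.41 (Arntl1-Ch10, SV, LL against diel), 0.17 to 0.48 (Arntl1-Ch10, SV, LL against DD) and 0.12 to 0.26 (Arntl1-Ch10, gill, DD against diel). The OT ratio of DD against diel lay between -0.22 and -0.15, and F between 1.94 and 2.89 (diel and LL) and 2.29 and 2.88 (diel and DD).

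With the fish as a replicate block the ratio differed by -0.29 between OT and SV, -0.47 between OT and gill and -0.19 between SV and gill, and the block changed no call.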
